A study of Pleurotus ostreatus with 53 samples.

Results

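CG methylation of transposable elements (TEs) and genes was compared between mycelium of N001 and mycelium of HyB, both dikaryons of the oyster mushroom Pleurotus ostreatus. HyB, labelled N001_HyB, was made by mating the monokaryons PC9 and PC15, which are protoclones derived from N001. Each of the 2 groups had 3 bisulfite libraries, described by the series as biological replicates. The other groups of the series were mycelium of PC15 and PC9 and the primordium and fruitbody of N001, and they are used here only to give levels. Members were all TE copies and genes with a methylation value in each of the 6 libraries, which held for 966 of 1051 listed TE copies and 11646 of 11828 listed genes. Missing values always covered a whole group: 6 TE copies had values in HyB but not in N001 mycelium, 7 had the reverse, 3 had values only in other groups and 69 had none. The member copies belonged to 79 families, were 11 to 20832 bp long with a median of 663 bp, and 378 of them overlapped another listed copy, so that these share sequence. Member genes were 150 to 15917 bp long with a median of 1422 bp. Genes are known here by number only, and none of the numbers could be given a function.

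Cytosine methylation at CG sites is, in many fungi, concentrated on repeats, and is associated there with silenced copies. Gypsy and Copia elements are retrotransposons with long terminal repeats, LINEs are retrotransposons without them, and DIRS elements are retrotransposons that encode a tyrosine recombinase. HELPO copies are Helitrons, which move by rolling-circle replication, and TIR elements, named for their terminal inverted repeats, move as DNA. A dikaryon keeps the nuclei of both mating partners apart in the same cell, so a methylation level averages over both nuclei where both give reads. The level of a copy or gene is the deposited CG fraction over its whole length, given here in percent, and a difference is given in percentage points. The number of reads and of CG sites behind each level is unknown. Errors are SDs over 3 libraries unless stated otherwise.

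Listed TE copies carried more CG methylation in N001 mycelium than in HyB. The mean level over 966 copies was 29%, 28.1% and 27.5% in the HyB libraries and 48.9%, 47.3% and 48.8% in the N001 mycelium libraries. The groups did not overlap, and their means of 28.2% ± 0.733 and 48.4% ± 0.881 lay 20.2 points apart. The median copy stood at 27.1% ± 0.938 in HyB and 54.0% ± 1.046 in N001 mycelium. Either measure reached p = 0.1 in the exact two-sided permutation test, which cannot go lower with 3 libraries a group (0.164 after adjustment over 18 measures). The copies over 50% methylated made up 12.3% ± 1.02 in HyB and 58.5% ± 1.80 in N001 mycelium. The share over 1% methylated was 89.0% ± 0.474 in HyB and 90.2% ± 1.02 in N001 mycelium, and here the libraries overlapped (exact permutation p = 0.2). The libraries of the 2 groups therefore stood apart at the 50% level and not at the 1% level.

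By limma-trend, with Benjamini-Hochberg adjustment over the 966 copies and a threshold of 0.05, 723 copies (74.8%) were higher in N001 mycelium and 42 (4.35%) were lower. The median difference was 26.2 points among the copies called higher and -15.6 points among those called lower. Differences of over 10 points were called at 675 copies (69.9%) in the upward direction and at 31 (3.21%) in the downward direction. Differences of over 40 points were called at 129 copies upward and 4 downward. The copies called higher had a median length of 1253 bp, the copies called lower 242 bp and the 201 copies not called 209 bp.

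Most genes carried almost no methylation in either dikaryon. The median gene stood at 0.282%, 0.204% and 0.198% in HyB and at 0.250%, 0.206% and 0.204% in N001 mycelium. These libraries overlapped, with replicate 1 the highest of its group in both strains. The mean over genes was 3.09% ± 0.137 in HyB and 5.25% ± 0.128 in N001 mycelium, with no overlap (exact permutation p = 0.1). Genes over 10% methylated made up 7.90% ± 0.156 in HyB and 8.61% ± 0.0227 in N001 mycelium, while genes over 50% methylated made up 1.54% ± 0.155 and 6.06% ± 0.161. The gap in the share of methylated genes depended on the level asked for: it was 0.713 points at over 10%, 0.235 points at over 5% and 2.05 points at over 20%. Among the 11646 genes, limma called 1025 (8.8%) higher in N001 mycelium and 184 (1.58%) lower. The 2 directions differed in size: 794 genes (6.82%) were higher by over 10 points and 28 (0.24%) lower by as much. The median called gene was 24.8 points higher or 0.58 points lower, and 117 of the 184 genes called lower moved by at most 1 point.

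**Figure D1:**
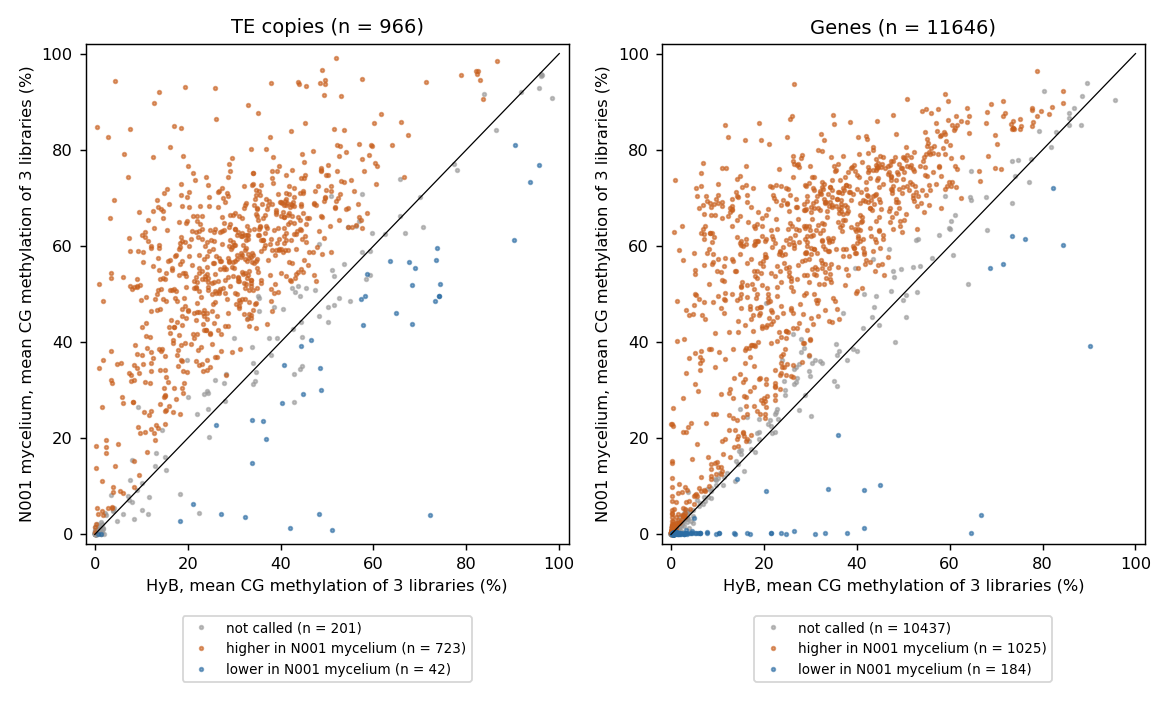
Mean CG methylation (%) of each TE copy (left) and gene (right) in HyB, on the horizontal axis, and N001 mycelium, on the vertical axis; each point is the mean of 3 libraries, colour gives the limma call, and the line marks equal levels. Of 966 TE copies, 723 were called higher and 42 lower; of 11646 genes, 1025 were called higher and 184 lower.

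All 6 TE classes had higher mean levels in each N001 mycelium library than in each HyB library. Gypsy, with 738 copies, had 29.3% ± 0.804 in HyB and 50.6% ± 0.897 in N001 mycelium, and 568 of its copies were called higher and 32 lower. Copia, with 129 copies, had 24.0% ± 0.423 and 42.5% ± 0.856, with 98 higher and 6 lower. LINE, with 38 copies, had the lowest levels, at 18.7% ± 0.720 and 34.0% ± 0.634. Limma called 21 LINE copies higher and 0 lower, the same counts as at an unadjusted p under 0.05.

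The smaller classes differed among themselves. The 29 DIRS copies had 31.6% ± 1.26 in HyB and 42.4% ± 1.051 in N001 mycelium, with 17 higher and 1 lower. HELPO, with 26 copies, had 21.3% ± 0.507 and 36.9% ± 0.879, with 14 higher and 2 lower. The 6 TIR copies had the highest levels, 52.4% ± 0.353 and 63.3% ± 0.837, with 5 higher and 1 lower. The difference between the strains' mean levels was larger in Gypsy than in each other class, by 2.79 points against Copia, 5.70 against HELPO, 6.09 against LINE, 10.4 against DIRS and 10.5 against TIR. For each of these 5 gaps the 3 libraries of N001 mycelium did not overlap those of HyB (exact permutation p = 0.1, the smallest possible). The size of some gaps depended on the summary: taken between median levels, the gap was 1.16 points against Copia and 11.7 against HELPO, and with copies weighted by length it was 6.26 against Copia and 11.2 against LINE. For TIR, the difference between strains was 10.8 points by means, 19.6 by median levels and 18.2 weighted by length.

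The difference grew with the length of the copy, both between mean levels and as the median over single copies. The 196 copies under 200 bp had mean levels of 26.1% ± 0.411 in HyB and 39.5% ± 0.859 in N001 mycelium, with 86 called higher and 16 lower. Their median difference was 1.73 points, far below the difference of the means, and single copies ran in both directions (SD over copies 24.3 points). Copies from 200 to under 1000 bp (n = 343) had a median difference of 18.3 points, and copies from 1000 to under 3000 bp (n = 156) of 20.3 points. Among 104 copies from 3000 to under 6000 bp, 99 were called higher and 1 lower, with a median difference of 26.1 points. The 167 copies of 6000 bp or more had 29.4% ± 1.51 in HyB and 57.5% ± 1.17 in N001 mycelium, with 161 higher and 2 lower. Their median difference was 28.4 points (SD over copies 12.7).

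The gap between the longest and the shortest bin was 14.8 points larger in N001 mycelium than in HyB, without overlap of libraries (exact permutation p = 0.1). Between median levels it was 7.70 points larger, since the median level of copies under 200 bp differed by 23.7 points between strains and their mean level by 13.4. By median levels the difference did not grow up to 3000 bp, with 24.5 points from 200 to under 1000 bp and 22.6 from 1000 to under 3000 bp. It was 30.5 points from 3000 to under 6000 bp and 31.4 at 6000 bp or more. The median SD between replicates of a copy was 3.32 points under 200 bp and 1.64 points at 6000 bp or more, so short copies were also measured less closely. Within Gypsy alone, the mean difference was 14.1 points under 200 bp and 28.6 points at 6000 bp or more, and in the other classes together it was 11.6 and 22.4 points. The rise was not steady in these parts: Gypsy had 29.6 points from 3000 to under 6000 bp. The other classes had 16.8 points from 200 to under 1000 bp and 16.1 from 1000 to under 3000 bp. As a description over 966 copies, which share the same libraries, Spearman's rho between length and difference was 0.314.

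**Figure D2:**
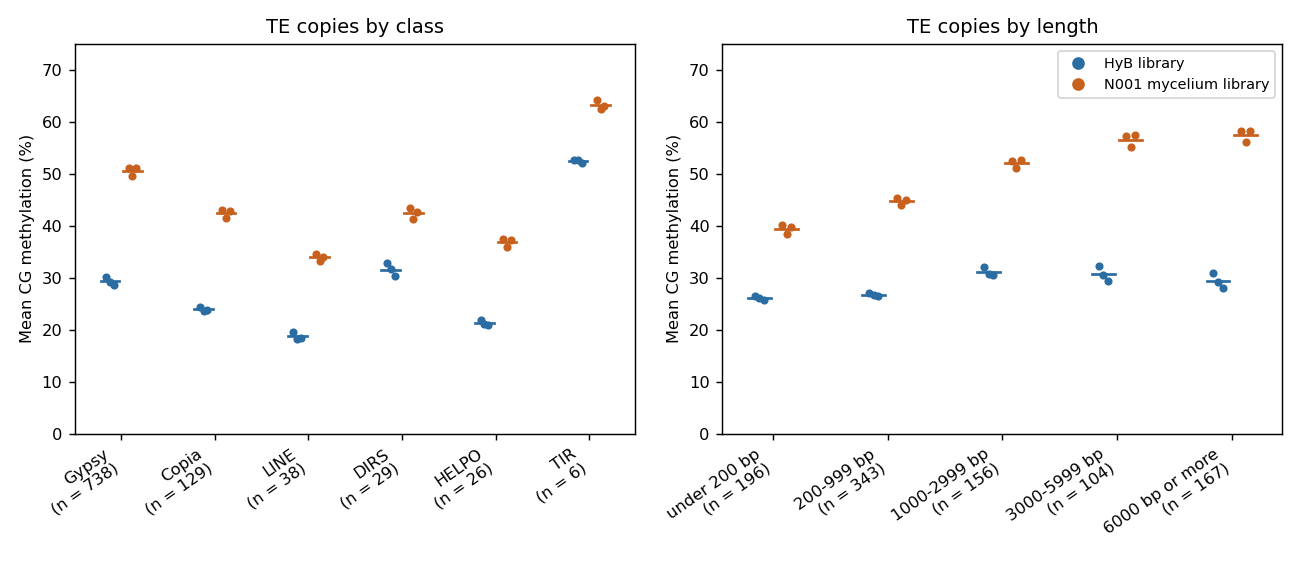
Mean CG methylation (%) of TE copies by class (left) and by length (right); each point is 1 library, horizontal lines are means of 3 libraries, and n is the number of copies. HyB levels lie between 26.1% and 31.1% in every length bin, while N001 mycelium levels go from 39.5% under 200 bp to 57.5% at 6000 bp or more.

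Among families with at least 10 member copies, Gypsy_2 and Gypsy_11 had the largest mean differences. Gypsy_2, with 46 mostly long copies (median 6183 bp), had 28.1% ± 1.77 in HyB and 60.0% ± 1.31 in N001 mycelium, a difference of 31.9 points. Gypsy_11, with 20 copies, had 19.7% ± 0.677 and 48.3% ± 0.787. The smallest mean differences were those of DIRS_1, with 25.7% ± 1.15 and 35.3% ± 0.961 over 16 copies, and Gypsy_40, with 36.2% ± 1.12 and 45.9% ± 2.37 over 13 copies. Copies of these last families were short, with medians of 208 and 140 bp.

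The largest differences at copies of 1000 bp or more were found at 4 Gypsy copies and 1 Copia copy. Gypsy_7 on scaffold 1 (3222250 to 3227909) stood at 22.1%, 13.7% and 12.8% in HyB and at 81.1%, 79.96% and 80.9% in N001 mycelium. The difference of 64.4 points (SE 2.67) had a limma adjusted p of 4.9e-06. This copy had 653, 169 and 214 mRNA reads in the HyB libraries and 8, 5 and 1 in the N001 mycelium libraries (edgeR log2 difference -5.20, adjusted p = 1.36e-07). Methylation was high and mRNA low in the same strain.

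Gypsy_3 on scaffold 7 (2857283 to 2867319) stood at 16.6%, 13.6% and 14.4% in HyB and 72.3%, 69.0% and 71.8% in N001 mycelium. Its mRNA reads numbered 335, 171 and 196 in HyB and 3, 0 and 0 in N001 mycelium (edgeR adjusted p = 2.52e-07). Copia_2 on scaffold 6 (1317928 to 1322959) stood at 13.7%, 10.7% and 13.1% in HyB and 69.1%, 66.6% and 66.3% in N001 mycelium. It had 94, 101 and 144 mRNA reads in HyB against 0, 1 and 0 (edgeR adjusted p = 3.19e-06). For these copies too the strain with more methylation had fewer reads. Gypsy_2 on scaffold 11 (1493764 to 1500468) stood at 13.4% ± 0.989 and 69.6% ± 6.36, and had 7, 4 and 3 reads in HyB and 0 in each N001 mycelium library. Gypsy_11 on scaffold 6 (1823813 to 1829499) stood at 20.01% ± 3.18 and 76.7% ± 1.03, with at most 7 mRNA reads in any of the 6 libraries.

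Of the 4 largest falls at copies of 1000 bp or more, 3 lay side by side on scaffold 7. Gypsy_15 (873721 to 875089) stood at 73.9%, 74.3% and 71.3% in HyB and 48.0%, 47.2% and 50.7% in N001 mycelium (limma adjusted p = 1.94e-05). Copia_1, which starts at the next base (875090 to 879469), stood at 40.3% ± 4.25 and 27.3% ± 0.958. Gypsy_7, which overlaps that Copia_1 copy (877232 to 887658), stood at 58.3% ± 0.896 and 49.6% ± 1.66, the smallest of the 4 falls. Each of these copies had at most 3 mRNA reads in any of the 6 libraries. The other fall was at HELPO2 on scaffold 6 (1150050 to 1156438), with 32.1%, 37.1% and 32.3% in HyB and 24.9%, 8.4% and 11.2% in N001 mycelium (limma adjusted p = 0.00916). Replicate 1 of N001 mycelium was closest to HyB there.

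Short copies gave the widest single differences. LINE_2 on scaffold 7 (2881934 to 2882134) stood at 8.63%, 0.75% and 3.83% in HyB and 95.9%, 95.2% and 91.9% in N001 mycelium. Gypsy_9 on scaffold 7 (173354 to 173406) stood at 0.5% ± 0.866 and 84.7% ± 5.97. In the other direction, Gypsy_27 on scaffold 10 (1313195 to 1313273) stood at 71.0%, 77.5% and 68.0% in HyB and 9.0%, 0% and 3.0% in N001 mycelium. Gypsy_42 on scaffold 9 (885426 to 885601) stood at 36.0%, 50% and 67.0% in HyB and 0.5%, 2.5% and 0% in N001 mycelium, a wide spread within HyB but no overlap. All 4 calls passed limma (largest adjusted p = 0.00115, at Gypsy_42).

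In each class other than Gypsy the copies with the widest differences were mostly short as well. The Helitron HELPO1.1 on scaffold 7 (2741056 to 2741198) stood at 7.05% ± 2.55 in HyB and 74.3% ± 4.41 in N001 mycelium. Copia_12 on scaffold 1 (3311866 to 3312071) stood at 13.8% ± 8.62 and 92.0% ± 4.56. DIRS_1 on scaffold 1 (366719 to 366776) stood at 49.0% ± 7.15 and 96.5% ± 0.661. The longer of the named TIR1 copies on scaffold 2 (1605772 to 1609503) stood at 50.1% ± 1.82 and 76.9% ± 1.39, and the shorter (1753125 to 1753262) at 95.7% ± 1.13 and 76.9% ± 3.57, so that both reached the same level in N001 mycelium from opposite sides. The falls at Copia_3 on scaffold 3 (362987 to 363264), from 68.4% ± 11.9 to 43.7% ± 8.08, and at DIRS_1 on scaffold 3 (653572 to 653708), from 57.3% ± 5.21 to 49.0% ± 0.694, passed narrowly (limma adjusted p = 0.0179 and 0.0303). Either call was lost on leaving out single libraries: Copia_3 without replicate 2 or 3 of HyB or replicate 1 or 2 of N001 mycelium (adjusted p = 0.0532 to 0.0632), and DIRS_1 without replicate 1 or 2 of HyB or any N001 mycelium replicate (0.0681 to 0.0922).

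Scaffolds differed in how far their TE copies differed. The largest mean differences were on scaffold 6, from 22.5% ± 1.13 in HyB to 52.1% ± 0.624 in N001 mycelium over 65 copies, and on scaffold 1, from 23.6% ± 0.872 to 52.7% ± 1.40 over 98 copies. Scaffold 7, with 138 copies, went from 25.3% ± 0.362 to 54.0% ± 1.43, with 114 copies called higher and 9 lower, and had the largest difference by median levels, 36.1 points, and weighted by length, 34.8 points. Scaffold 10 had the smallest difference: its 55 copies stood at 32.8%, 33.5% and 33.0% in HyB and 39.0%, 36.5% and 38.3% in N001 mycelium, with 26 called higher, 8 lower and 21 not called. Its difference of 4.86 points by means was 7.67 points by median levels and 7.56 points weighted by length, and that of scaffold 8 was 19.1 points by means and 29.6 weighted by length. Among copies of 1000 bp or more, a cut by length and scaffold chosen after the values were seen, the 18 copies of scaffold 10 differed by 7.08 points, against 18.5 to 33.0 points on the other scaffolds with at least 10 copies. On scaffold 11 replicate 3 of HyB, at 27.4%, lay below replicates 1 and 2, at 32.7% and 33.0%.

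Among genes, scaffold 12 stood apart. Its 82 genes had mean levels of 36.8% ± 0.580 in HyB and 55.1% ± 0.762 in N001 mycelium, and 57 were called higher and 1 lower. On the other scaffolds the gene mean lay at or below 7.74% in HyB and at or below 12.1% in N001 mycelium, the values of scaffold 2. Scaffold 7 contributed the most genes higher by over 10 points, 163 of 1008, followed by scaffold 2 with 122 of 739. The smallest mean differences were 0.124 points on scaffold 10 and 0.179 points on scaffold 5.

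**Figure D3:**
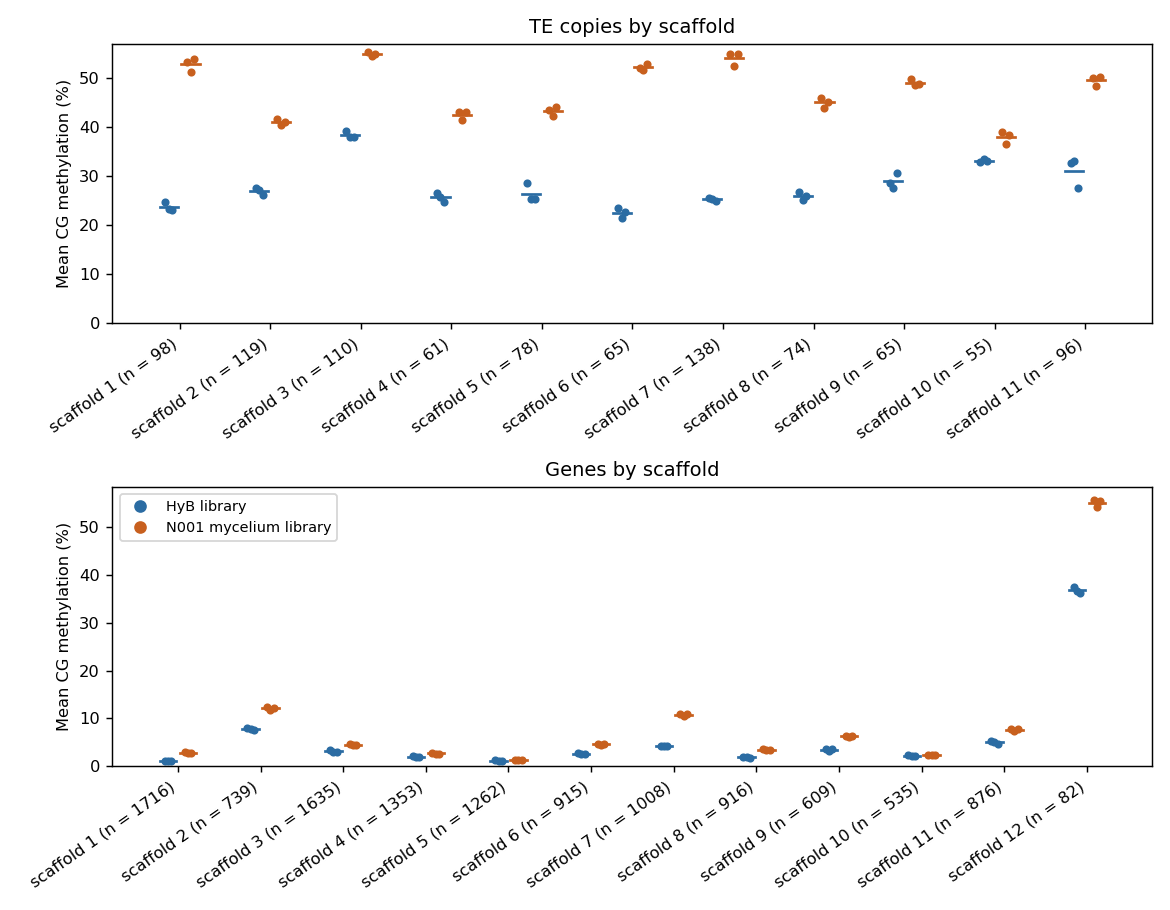
Mean CG methylation (%) by scaffold for TE copies (top; scaffolds with at least 10 copies) and genes (bottom; scaffolds with at least 50 genes); each point is 1 library, lines are means of 3 libraries, and n is the number of copies or genes. TE copies of scaffold 10 show the smallest gap, 33.1% against 37.9%, and genes of scaffold 12 the highest levels, 36.8% against 55.1%.

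Genes close to TE copies were more methylated in both strains and differed more between them. The 21 genes overlapping a listed copy had 37.5% ± 2.09 in HyB and 57.0% ± 1.37 in N001 mycelium, with 16 called higher and 1 lower. The 418 genes within 1 kb had 16.01% ± 0.657 and 28.4% ± 0.604, with 181 higher and 9 lower. At 1 to 5 kb, 896 genes had 8.93% ± 0.329 and 15.99% ± 0.404, with 232 higher and 21 lower. The 10311 genes farther than 5 kb had 1.99% ± 0.0969 and 3.27% ± 0.0854, with 596 higher and 153 lower. Set against these far genes, the difference between strains was 18.2 points larger at overlapping genes, 11.1 points larger within 1 kb and 5.79 points larger at 1 to 5 kb, each without overlap of libraries (exact permutation p = 0.1). By number the far genes still held 414 of the 794 genes that were higher by over 10 points. The shortest genes differed more than the longest, with 7.11% ± 0.221 and 11.9% ± 0.292 under 500 bp (n = 822) and 2.85% ± 0.150 and 4.98% ± 0.104 at 4000 bp or more (n = 565). The course between was not steady. The difference was 4.77 points under 500 bp, 2.76 from 500 to under 1000 bp and 1.51 from 1000 to under 2000 bp. It was 1.88 points from 2000 to under 4000 bp and 2.13 at 4000 bp or more.

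The level of a gene in PC15 mycelium, which entered no part of the test, went along with whether the gene was called. Of 737 genes at 10 to 50% in PC15, 679 were called higher and 10 lower, and their mean went from 32.1% ± 1.39 in HyB to 61.3% ± 1.36 in N001 mycelium. Of 10687 genes under 1% in PC15, 217 were called higher and 138 lower, and 38 were higher by over 10 points. The 160 genes at 1 to 10% had 96 higher and 32 lower. The 61 genes at 50% or more in PC15 had 70.5% ± 2.11 and 76.0% ± 1.40, with 32 higher and 4 lower. Of 648 TE copies at 10 to 50% in PC15, 568 were called higher and 25 lower. Of 260 copies under 10% in PC15, 129 were higher and 5 lower, and of 53 copies at 50% or more, 22 were higher and 11 lower. The share called higher was thus highest at 10 to 50% for genes and for TE copies, while the lowest share was that under 1% for genes and that at 50% or more for TE copies.

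**Figure D4:**
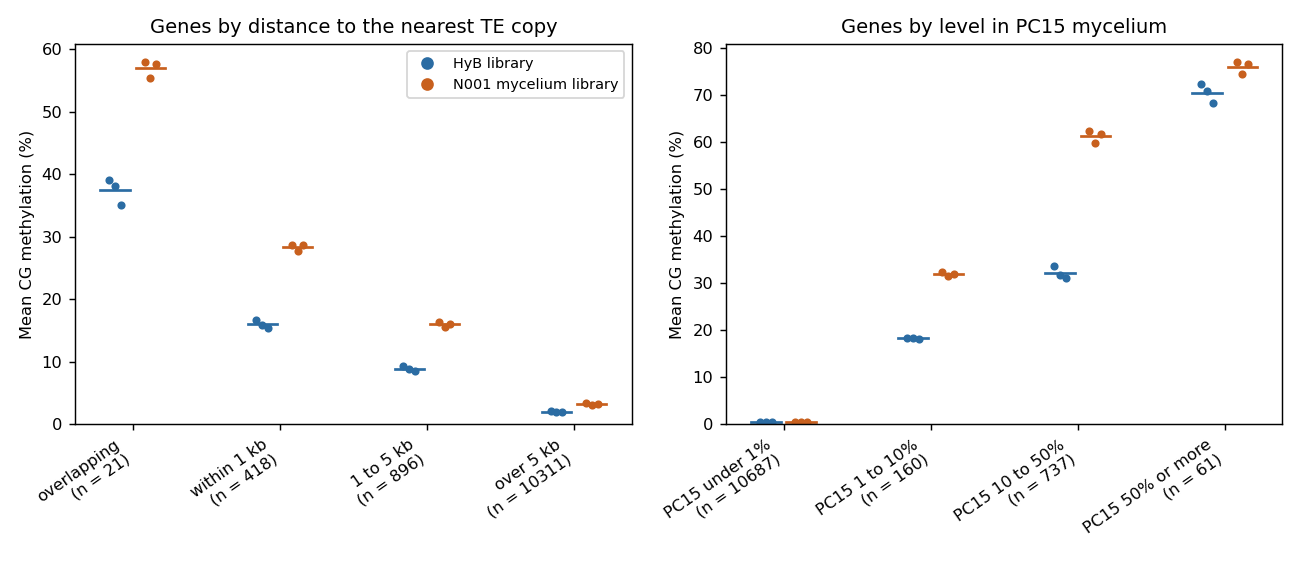
Mean CG methylation (%) of genes by distance to the nearest TE copy (left) and by level in PC15 mycelium (right); each point is 1 library, lines are means of 3 libraries, and n is the number of genes. The gap between strains is widest for the 737 genes at 10 to 50% in PC15, 32.1% against 61.3%, and narrows with distance from TE copies.

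Genes without a value in PC9 were called higher more often than genes with one, a description with no test of its own. Of 506 such genes, 333 were called higher and 14 lower, with means of 20.1% ± 1.22 in HyB and 42.9% ± 1.07 in N001 mycelium. The 11140 genes with a PC9 value had 2.32% ± 0.0891 and 3.53% ± 0.0885, with 692 higher and 170 lower. Farther than 5 kb from a TE copy the contrast was alike, with 195 of 334 genes without a PC9 value called higher, against 401 of 9977 with one. Why PC9 values are missing was not tested.

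The genes that were higher by over 10 points lay next to each other. In the order of member genes along each scaffold, the 794 genes formed 203 runs, of which 70 were single genes, and 91 runs of at least 3 genes held 640 of them. The longest run covered 32 genes on scaffold 12 (41004 to 146556), with a mean of 57.0% ± 0.805 in HyB, 83.0% ± 0.836 in N001 mycelium and 24.1% in PC15. The next run, of 23 genes on scaffold 7 (3071489 to 3132804), contained no member TE copy and stood at 24.4% ± 0.0827 and 61.4% ± 1.72. Listed copies that are not members were not counted in the runs. A run of 22 genes on scaffold 2 (1665588 to 1748503) stood at 49.7% ± 2.07 and 71.1% ± 1.68. Runs of 18 genes lay at 2 places on scaffold 7: one (2678764 to 2759220) stood at 18.3% ± 0.335 and 63.3% ± 2.61, and all 14 member TE copies in it were called higher. The other (2802699 to 2884959) stood at 35.2% ± 0.163 and 72.9% ± 1.21, with all 8 member TE copies called higher. Genes lower in mRNA in N001 mycelium by limma on log2(RPKM + 1) were 0 of 7 tested in the run of 32, 1 of 7 in that of 23, 0 of 1 in that of 22, and 7 of 9 and 5 of 10 in the runs of 18, beside 7.47% of all genes tested.

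The largest rises at genes of 500 bp or more were at genes 1045775, 1045993, 1106089 and 1110030. Gene 1045993 on scaffold 7 (251102 to 253584) stood at 2.6%, 0% and 0% in HyB and 72.6%, 72.2% and 76.2% in N001 mycelium (limma adjusted p = 4.84e-08). Gene 1045775 on scaffold 7 (1487572 to 1488324) stood at 17.7%, 11.3% and 5.67% in HyB and 79.2%, 97.0% and 79.2% in N001 mycelium. Gene 1106089 on scaffold 6 (2720129 to 2721139) stood at 26.6% ± 8.31 and 93.6% ± 2.80, and gene 1110030 on scaffold 11 (2706348 to 2707745) at 18.9% ± 14.1 and 85.7% ± 4.47. The spread within HyB was wide for the last, from 5.0% to 33.2%, yet no library overlapped. None of these 4 genes had an RPKM (mRNA reads scaled by gene length and library total) above 0.128 in any of the 6 libraries, and none had a methylation value in PC9.

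The largest falls at genes of 500 bp or more were at genes 1103931, 1026976, 1108747 and 1113708, of which all but 1108747 stood below 10% in each N001 mycelium library. Gene 1103931 on scaffold 5 (12275 to 14581) stood at 69.3%, 62.5% and 62.3% in HyB and 0.273%, 0.340% and 0.354% in N001 mycelium (limma adjusted p = 1.27e-07). Gene 1026976, near the start of the same scaffold (789 to 1307), stood at 66.7% ± 2.11 and 4.12% ± 1.21. Gene 1113708, near the start of scaffold 8 (1057 to 2937), stood at 41.9%, 41.7% and 41.2% in HyB and 1.20%, 1.43% and 1.31% in N001 mycelium. Gene 1108747 on scaffold 10 (304575 to 305110) stood at 90.1% ± 0.341 and 39.1% ± 12.97. The RPKM of gene 1113708 was 12.9 ± 2.11 in HyB and 8.87 ± 1.70 in N001 mycelium, which did not pass limma (adjusted p = 0.311).

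In the other groups, the features called higher had levels in N001 primordium and fruitbody close to those of N001 mycelium. Over the 569 such TE copies with a value in all 17 bisulfite libraries, the mean was 23.2% ± 0.552 in PC15, 53.5% ± 0.448 in PC9, 29.4% ± 0.964 in HyB, 55.7% ± 0.923 in N001 mycelium, 57.5% ± 1.84 (n = 2) in primordium and 56.7% ± 0.825 in fruitbody. Over the 477 genes higher by over 10 points with values in all 17, the same groups had 21.9% ± 0.493, 58.0% ± 0.434, 35.7% ± 0.930, 63.7% ± 1.22, 65.3% ± 0.851 (n = 2) and 64.1% ± 1.33. In both lists HyB lay between the monokaryons and closer to PC15, and the 3 N001 groups lay above PC9. The 149 TE copies called higher without a PC9 value had 27.0% ± 0.997 in PC15, 26.5% ± 1.49 in HyB and 59.8% ± 1.32 in N001 mycelium. The 316 genes higher by over 10 points without one had 24.7% ± 0.616, 24.2% ± 1.63 and 60.6% ± 1.49. In these lists, chosen in part on HyB values, HyB did not lie above PC15. Without that choice, 245 member TE copies lacking a PC9 value had 26.7% ± 1.12 in HyB and 25.4% ± 0.646 in PC15. The 504 such genes had 20.05% ± 1.22 and 19.4% ± 0.400, and the libraries overlapped for copies and for genes. The 22 TE copies called lower with values in all 17 libraries had 62.1% ± 1.52 in HyB, against 48.4% ± 1.37 in PC15, 56.8% ± 1.86 in PC9 and 43.9% ± 1.19 in N001 mycelium. The 19 genes lower by over 10 points had 32.5% ± 0.907 in HyB, against 14.6% ± 0.595 in PC15, 14.1% ± 0.205 in PC9 and 5.19% ± 0.127 in N001 mycelium. These lists were chosen on HyB and N001 mycelium values, so their levels in the other groups are a description. Without that choice, the mean over 715 TE copies was 49.2% ± 0.486 in PC9 and 49.1% ± 0.787 in N001 mycelium. Over 11140 genes it was 3.47% ± 0.0166 and 3.53% ± 0.0885.

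Over all 715 member TE copies with values in every library, HyB lay between the means of PC9 and PC15 at 491 copies, below both at 157 and above both at 67. N001 mycelium lay between them at 308 copies, above both at 376 and below both at 31. Since HyB comes from mating these monokaryons and both derive from N001, both dikaryons carry nuclei of the same descent.

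The mRNA libraries of HyB were not equally independent: replicates 2 and 3 were close to each other, with a chi-square of 3.77 per degree of freedom over gene reads, against 87.8 to 515 for the other pairs within HyB and N001 mycelium. In an alternative fit both were merged into 1 library, as were replicates 2 and 3 of N001 primordium. There, 157 of the 330 genes described next were lower in mRNA, in place of 164, and 116 of 270 tested TE copies, in place of 112 of 241. Genes with more methylation in N001 mycelium mostly had little mRNA there. Among the 794 genes higher by over 10 points, the share with an RPKM under 1 was 72.9%, 75.7% and 75.9% in HyB and 91.8%, 91.3% and 91.2% in N001 mycelium. The groups did not overlap (exact permutation p = 0.1, the smallest possible). This test and the SDs count HyB replicates 2 and 3 as separate libraries, although they were so close. Among the 10433 genes that were not called and had an RPKM, the same share was 5.64% ± 0.475 in HyB and 5.90% ± 0.966 in N001 mycelium. By limma on log2(RPKM + 1) over every gene, 198 of the 794 genes were lower in mRNA in N001 mycelium and 0 higher (8 at an unadjusted p under 0.05), beside 6.9% lower and 3.12% higher of all genes tested. When genes had to reach 1 RPKM in 3 or more libraries, 330 genes were tested and 164 were lower, beside 7.47% lower and 3.61% higher of all genes. Of these 330 genes, 319 passed the filter without any HyB library (155 lower) and 11 passed through HyB alone (9 lower).

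No gene of the 330 was called higher in mRNA, with 4 at an unadjusted p under 0.05. On leaving out replicate 1 of HyB or replicate 1 of N001 mycelium, limma called 2 and 6 higher. Of the 188 genes higher by over 40 points, 78 were lower in mRNA without the filter, and their share under 1 RPKM was 65.6% ± 3.92 in HyB and 97.5% ± 0.813 in N001 mycelium. Among the 28 genes lower in methylation by over 10 points, limma without the filter called 2 higher in mRNA and 0 lower (0 lower at an unadjusted p under 0.05). This stands beside 3.12% higher and 6.9% lower of all genes tested. With the filter the counts were the same over 19 tested genes, beside 3.61% and 7.47%. These genes are too few to set the 0 apart from the share over all genes. The share of the 28 genes under 1 RPKM was 59.5% ± 5.46 in HyB and 58.3% ± 5.46 in N001 mycelium.

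**Figure D5:**
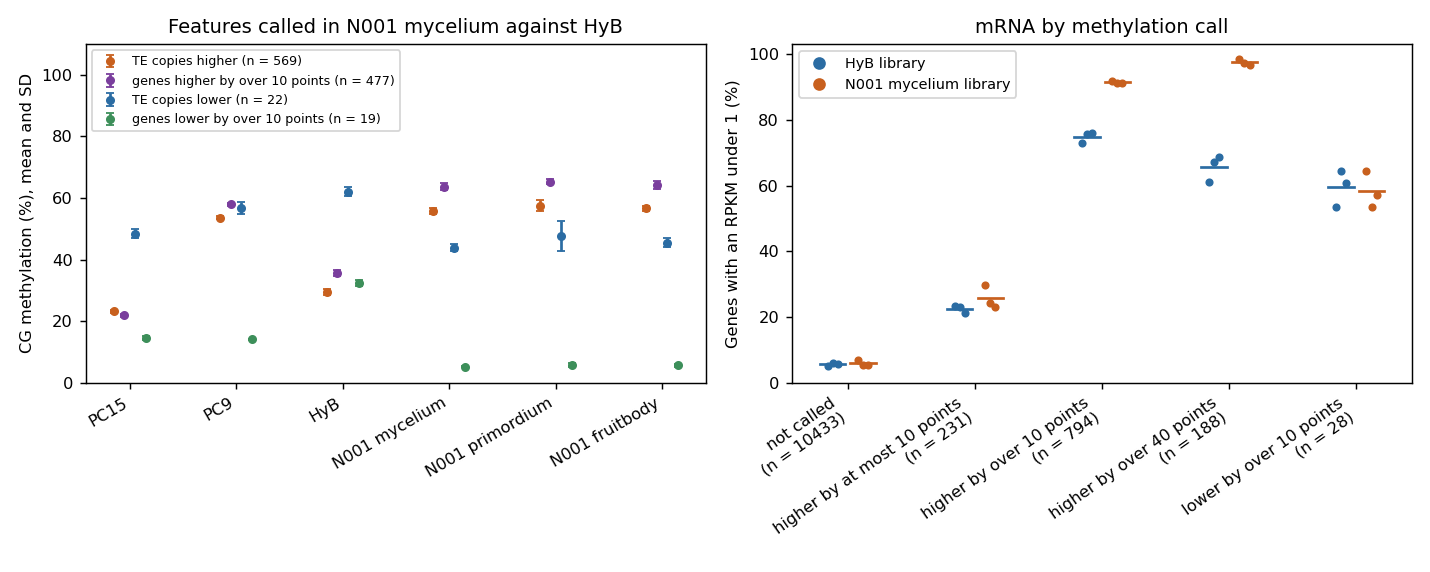
Left: mean CG methylation (%) in the 6 groups of features called between N001 mycelium and HyB that had a value in all 17 libraries; points are means and bars SDs of 3 libraries (2 for primordium). Right: share (%) of genes with an RPKM under 1 by methylation call; each point is 1 library and lines are means of 3 libraries. Genes higher by over 10 points go from 74.9% under 1 RPKM in HyB to 91.4% in N001 mycelium, while genes not called stay near 5.6% to 5.9%.

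TE copies that were more methylated in N001 mycelium also held fewer mRNA reads there. The 723 copies called higher took 2789, 2724 and 2677 RPM (counts relative to all reads of the library) in HyB and 1113, 1278 and 1464 RPM in N001 mycelium, without overlap (exact permutation p = 0.1). Here too the close HyB replicates 2 and 3 count as separate libraries. The 129 copies higher by over 40 points took 421 ± 84.6 RPM in HyB and 3.60 ± 0.726 RPM in N001 mycelium. Fewer copies were also seen at all: 53.4% ± 7.66 of the 723 had at least 1 mRNA read in HyB and 33.7% ± 1.94 in N001 mycelium. The other copies went the same way, also without overlap of libraries (exact permutation p = 0.1). That share was 46.8% ± 4.90 and 40.8% ± 1.32 among the 201 copies not called. Among the 42 copies called lower it was 25.4% ± 4.96 and 16.7% ± 4.12. The 201 copies not called took 671 ± 98.0 and 743 ± 46.2 RPM, which overlapped (exact permutation p = 0.4). The 42 copies called lower in methylation took 6.05 ± 0.586 and 5.61 ± 2.12 RPM, which overlapped (exact permutation p = 0.8). The 31 of them lower by over 10 points took 2.22 ± 1.17 and 0.474 ± 0.290 RPM, without overlap (exact permutation p = 0.1). At those 31 copies, fewer mRNA reads thus went with less methylation. In such bulk samples, fewer nuclei or cells that transcribe a copy and less RNA from each cannot be told apart.

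For single copies the quasi-likelihood test of edgeR was used. With TMM scaling, 241 of the 723 copies passed the filter on low counts, and 112 were lower in mRNA and 12 higher, beside 36.6% lower and 9.55% higher of all 314 copies tested. Scaled to library totals, 344 were tested, and 151 were lower and 4 higher, beside 37.6% and 1.64% of 428 copies. Because copies with low counts pass the filter more easily when 1 strain is high, the counts with every copy of at least 1 read are also given: 130 of 668 were lower and 10 higher, beside 14.6% and 2.71% of 924. Of the 61 not-called copies that were tested with TMM, 16 were higher and 1 lower, but with library totals 2 of 67 were higher and 6 lower, so a rise of mRNA at those copies depended on the scaling. TMM assumes that most copies tested do not differ, and the median log2 difference of the members tested was -1.04 with TMM and -1.90 with library totals. By class, with library totals, 125 of 280 tested Gypsy copies and 21 of 40 Copia copies among those called higher in methylation were lower in mRNA. Few copies of the other classes were tested by edgeR: 2 were lower and 3 higher of 12 LINE copies, 3 were lower and 0 higher of 5 HELPO copies, and 0 were called among 3 DIRS and 4 TIR copies. At an unadjusted p under 0.05, 0 HELPO copies were higher, 0 DIRS copies differed, and 1 TIR copy was lower.

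The same copies together took a smaller share of all gene and TE small RNA reads in N001 mycelium. Such a share depends on the gene reads too. The 723 copies called higher in methylation took 685030, 582065 and 550389 RPM, here scaled to all gene and TE small RNA reads, in HyB and 294612, 273591 and 265462 in N001 mycelium. These groups did not overlap (exact permutation p = 0.1). By single copies the difference was less marked. With edgeR and library totals, 92 of 527 tested copies (17.5%) were lower, 4 higher and 431 not called, beside 14.8% lower and 1.11% higher of all 633 tested. With TMM, 91 of 505 were lower and 63 higher, beside 15.1% in either direction of 608, so the count of copies with more small RNA rested on the scaling. It also rested on single libraries: 8 to 11 copies were higher with TMM when any 1 of the HyB replicates, or replicate 2 or 3 of N001 mycelium, was left out, and 57 without replicate 1 of N001 mycelium. The count of lower copies fell to 59 without replicate 3 of N001 mycelium. Of the 505 copies tested with TMM, 423 were Gypsy copies, with 90 lower and 44 higher. Copia had 1 lower and 9 higher of 48, and TIR had 4 higher of 5. With library totals, 90 of 438 Gypsy copies were lower and 4 higher, and 2 of 52 Copia copies were lower and 0 higher (9 higher at an unadjusted p under 0.05). The 5 TIR copies gave 0 calls by edgeR with library totals, with 1 higher at an unadjusted p under 0.05. The median log2 difference over the copies called higher in methylation was 0.38 with TMM and -0.58 with library totals, so its sign depended on the scaling. The 17 tested copies that were lower in methylation gave 0 small RNA calls by edgeR with either scaling, with 3 at an unadjusted p under 0.05 with TMM and 1 with library totals.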

How the data were processed

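The authors deposited a CG methylation fraction for each gene or TE copy, per the file headers, which was multiplied by 100 here. TE mRNA and small RNA were deposited as read counts and gene mRNA as RPKM, per the file headers. FastQC, STAR 2.3.16 and BS-Seeker2 are named per the submitters' processing notes. Genome build, coverage, strand setting, read counter and the handling of multiply matching reads are not given in the sources used here. Reads of similar copies may therefore be shared. Tables were joined by identifier and coordinates, which are those of the methylation tables.

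Percentage points of methylation entered limma-trend (version 3.58.1 under R 4.3.3) for the 6 libraries, separately for TE copies and genes. RNA was fitted over all 6 groups: edgeR 4.0.16 for counts and limma on log2(RPKM + 1) for genes. DESeq2 1.42.0 was an alternative. Sets were compared by exact two-sided permutation of libraries. Library totals were 19628882 to 30123572 reads for mRNA, recovered from the steps of the RPKM values, and 660455 to 1209388 gene and TE reads for small RNA. Coverage of the methylation levels is unknown, so no interval is given for them.

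Replicate numbers were not used to pair the samples. Same-numbered libraries deviated together with correlations of -0.00835 to 0.0718 over TE copies and -0.0132 to 0.212 over genes, highest for replicate 1 in either case. Replicate 1 also had the highest median gene level in both strains. Its share of TE copies at 0% was the lowest in both, 3.73% in HyB and 2.80% in N001 mycelium. Counts with replicate number as a block are given below. The limma and edgeR tests were checked on simulated data with known changes and independently drawn libraries. The permutation test and DESeq2 were not checked in this way. With TMM the TE mRNA test also called unchanged copies when most tested copies were changed in the simulation, and it did not when few were changed or when library totals were used, so both scalings are printed.

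Named features were those past the threshold with libraries that did not overlap. These were the 5 largest rises and 4 largest falls of TE copies of 1000 bp or more, 2 of each under 1000 bp, 1 of each per class other than Gypsy, and 4 of each for genes of 500 bp or more. For families and scaffolds they were the largest and smallest mean differences. Members, sets and rules were chosen with earlier results of these data known.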

Additional observations from a re-analysis of the deposited data

How the results depend on the processing

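Recomputed under each alternative, 0 of the mean differences and named features changed direction. Counts of calls were compared by size only, so a reversal could not show in them. The median small RNA difference given above did change sign with the scaling. Of the counts and mean differences, 271 recomputed values stayed within 1.5 times of the value reported and 27 did not. The gap in the share of methylated genes was 0.235 points at over 5% and 2.05 at over 20%. With median levels, Gypsy exceeded Copia by 1.16 points and HELPO by 11.7, and the longest copies exceeded the shortest by 7.70. Weighted by length, Gypsy exceeded Copia by 6.26 points and LINE by 11.2. For single classes, length bins and scaffolds, 6 values moved by over 1.5 times, all upward. Restricted to features complete in all 17 libraries, 22 TE copies were lower (19 shared with the 42) and 14 lower by over 10 points, and 655 genes were higher and 477 higher by over 10 points, which have fewer features tested. At lengths of at least 500 bp, 14 TE copies were lower and 8 lower by over 10 points. Adjusting genes and TE copies together left 24 TE copies lower. Requiring a mean level of at least 1% left 63 genes lower. In the fit as reported, 16 genes were lower by over 20 points. With library totals, 4 copies higher in methylation were higher in mRNA and 4 in small RNA, and without a filter 11 were higher in small RNA.

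Leaving out 1 library at a time gave 8 to 57 copies higher and 59 to 98 lower in small RNA, and 0 to 6 genes higher in mRNA. The cause was not tested. Among named features, 11 settings lost the call at the falls of Copia_3 and DIRS_1 on scaffold 3, to adjusted p of 0.0532 to 0.138. With replicate number as a block, 719 TE copies were higher and 38 lower, and 1012 genes higher and 186 lower, so the block changed no count by over 1.5 times. Coverage is unknown, so how far depth limits each level could not be measured.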
